A study of Ovis aries with 18 samples.

Results

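The genes described here are 8 giant genes of the sheep genome, 4 that are muscle-specific (TTN, NEB, RYR1 and RYR2) and 4 that are broadly expressed (SYNE1, SYNE2, DST and MACF1), out of 20092 genes in the count table. They were chosen for their very long transcripts and their little known role in the blastocyst. The set was also chosen from a measured value, since TTN was the most counted gene of pool Embryo444_2, so that count and the rank it gives are a description without a test. Gene expression was measured by RNA sequencing in 12 pools of 5 blastocysts (inner cell mass and trophectoderm), grouped by sire and dam. Of these, 6 pools were sired by 3 Polypay rams on a control basal diet (Ram410, Ram423 and Ram444, 2 pools each). The other 6 pools came from 3 Polypay rams whose control diet was top-dressed with 1.5 g (0.22%) of rumen-protected methionine (Ram424 with 4 pools, Ram498 and Ram511 with 1 pool each). The diet was that of the sire, and no embryo was treated directly. Total RNA was freed of DNA and whole-transcriptome amplified before library preparation in every pool, so no unamplified pool serves as a control.

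Titin (TTN) is the molecular spring that runs from the Z-disc to the M-line of the sarcomere, and nebulin (NEB) lies along the thin filament of skeletal muscle. The ryanodine receptors release calcium from the sarcoplasmic reticulum, RYR1 mainly in skeletal and RYR2 mainly in cardiac muscle. The broadly expressed giants are cytoskeletal linkers. SYNE1 and SYNE2 encode nesprins, which tie the nuclear envelope to the cytoskeleton, while DST and MACF1 are spectraplakins that join actin, microtubules and, for DST, intermediate filaments. A long transcript yields more reads than a short one at the same molar level, so counts were compared for 1 gene between pools and not between genes.

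Pool totals ranged from 1017847 to 2398589 counts. Embryo444_2 (control) and Embryo511_1 (methionine) stood apart from the other 10 pools. Their Spearman coefficients with any other pool over the tested genes were 0.526 to 0.626, against 0.806 to 0.955 among the other 10. Of 16 blastocyst markers listed, 12 were in the table, and they summed to 482 counts in Embryo444_2 and 355 in Embryo511_1, against 8572 to 31208 elsewhere. KRT8, a keratin of the trophectoderm, had 164 and 43 counts there against 5486 to 24131. None of the 12 markers was above its median of the other 10 pools in either. NANOG and SOX17, low in every pool, differed less, with 14 and 8 counts against 9 to 23 and 2 and 0 against 1 to 8. By the summed markers the labelled tissue was well marked in 10 pools and barely in Embryo444_2 and Embryo511_1. For the giants, the spread, the ratio and the diet comparison are given with and without Embryo444_2 and Embryo511_1.

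The summed counts of the giants moved less between pools than the pool totals did. The 8 genes together drew 4824 counts (Embryo410_1) to 6847 counts (Embryo424_4 and Embryo444_2), a 1.42-fold range, while pool totals differed 2.36-fold. As a share of all counts they took 0.251% (Embryo424_2) to 0.435% in the 10 similar pools. Their share was 0.519% in Embryo511_1 and 0.584% in Embryo444_2, the highest of the 12 pools. Fewer cells of a type and less RNA per cell cannot be told apart in such shares.

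Among the muscle-specific genes, TTN drew 1641, 2046 and 2516 counts (lowest, median and highest) in the 6 control pools. In the 6 methionine pools the corresponding counts were 1403, 1796.5 and 2523. The groups overlapped almost entirely, the highest count came from Embryo498_1 and not from Embryo444_2, and the lowest from Embryo511_1. NEB had 442, 525 and 892 counts in control pools, the highest in Embryo444_2. It had 464, 677 and 731 counts in methionine pools, within the control range. RYR1 varied more than either, with 265, 286 and 449 counts in control pools and 164, 247.5 and 505 in methionine pools. Its lowest counts were those of Embryo424_3 and Embryo424_2 and its highest those of Embryo511_1 and Embryo444_2. RYR2 spanned 224, 350 and 740 counts in control pools and 319, 364.5 and 406 in methionine pools. A single control pool, Embryo444_1, gave the 740 counts, and the methionine pools lay inside the control range.

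The broadly expressed giants spanned 1.51-fold (DST) to 2.03-fold (SYNE2) between lowest and highest pool. The muscle-specific giants spanned 1.80-fold (TTN) to 3.30-fold (RYR2). SYNE1 had 456, 552.5 and 736 counts in control pools against 544, 662.5 and 759 in methionine pools. SYNE2 had 326, 388 and 584 against 288, 408.5 and 566, with its highest count in Embryo444_2 and its lowest in Embryo511_1. DST was the steadiest, with 457, 580.5 and 614 counts in control pools and 467, 559.5 and 690 in methionine pools. MACF1 had 626, 929 and 1116 against 839, 1017.5 and 1258. For each of these genes the groups overlapped. MACF1 alone of the 8 had its lowest count in Embryo444_2, the pool in which TTN ranked first.

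**Figure D1:**
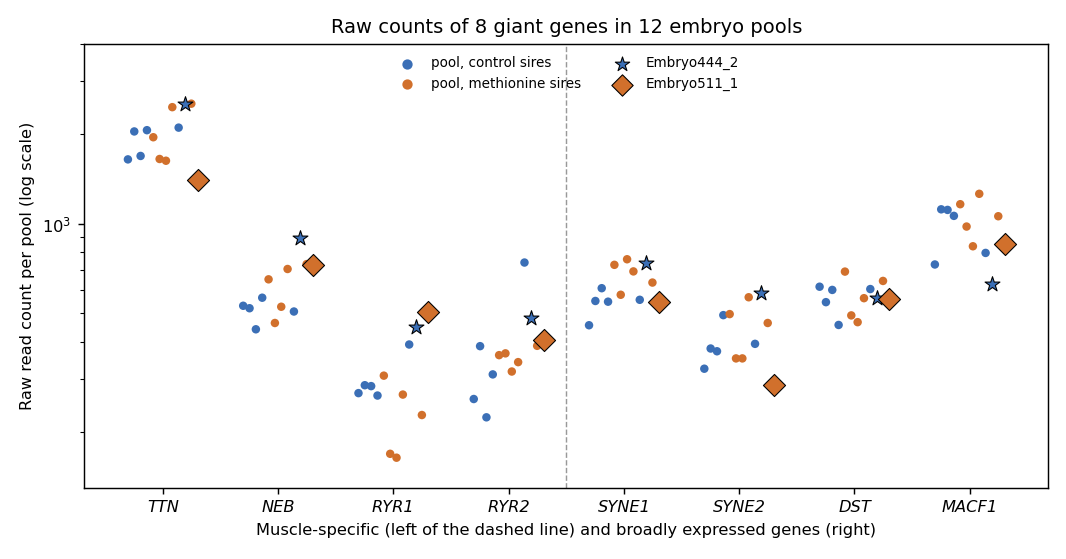
Raw read counts (vertical axis, log scale) of the 8 giant genes in each of 12 embryo pools, coloured by the diet of the sire, with Embryo444_2 as a star and Embryo511_1 as a diamond. The range between lowest and highest pool runs from 1.51-fold for DST to 3.08-fold for RYR1 and 3.30-fold for RYR2, the latter pair wider than the 2.36-fold range of the pool totals.

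The coefficient of variation (CV, the SD as a percentage of the mean) of the raw counts over 12 pools differed among the 8 genes. It was 12.3% for DST, 15.4% for SYNE1, 20.1% for MACF1 and 22.7% for SYNE2. Among the muscle-specific genes it was 19.4% for TTN, 22.4% for NEB, 34.4% for RYR2 and 34.5% for RYR1. On raw counts all 8 values lay below the median of the 16488 tested genes (44.3%) and below that of the 1374 genes with a mean of at least 200 counts (51.3%). Of those 1374 genes, the share that varied less was 0.0728% for DST, 0.655% for SYNE1, 2.91% for TTN and 23.7% for RYR1. Genes with fewer counts have more counting error, which is why the second background was used. Its minimum mean also admits genes that were high in the 10 similar pools only. That raises their CV over 12 pools by construction, raw or scaled, and lowers the shares given for the giants. Without Embryo444_2 and Embryo511_1 the CV was 13.6% for DST, 15.3% for SYNE1, 16.8% for TTN, 17.0% for MACF1, 17.5% for NEB, 18.9% for SYNE2 and 25.3% for RYR1. Those 7 lay below the medians of all tested genes (37.5%) and of the well-counted genes (36.6%) in the same 10 pools, but RYR2, at 38.0%, did not. Of the 1374 well-counted genes, 9 varied less than DST over these 10 pools, 37 less than TTN and 742 less than RYR2. These positions depended on the scale. After scaling by the trimmed mean of M values (TMM), the CV was higher than in raw counts for DST (21.8%), SYNE1 (19.6%), NEB (32.9%), RYR2 (42.9%) and RYR1 (54.0%). It was lower for SYNE2 (18.8%), MACF1 (19.1%) and TTN (18.9%). The TMM medians were 42.2% over all tested and 41.9% over the well-counted genes, so RYR1 and RYR2 then lay above both and the other 6 below. The share of well-counted genes that varied less became 11.3% for DST, 6.91% for SYNE1, 6.33% for TTN and 78.3% for RYR1. Scaled by library totals alone, NEB (40.2%) was also above the median of the well-counted genes (39.2%).

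Against the median of the other 10 pools, Embryo444_2 had 1.26 times the counts of TTN, 1.69 times those of NEB, 1.67 times those of RYR1 and 1.37 times those of RYR2. The same ratio was 1.24 for SYNE1, 1.51 for SYNE2, 0.968 for DST and 0.591 for MACF1. In Embryo511_1 the ratios ran from 0.704 for TTN to 1.88 for RYR1. The median ratio of the 8 genes was 1.32 in Embryo444_2 and 0.939 in Embryo511_1. Over all 16488 tested genes it was 0.919 and 0.629, and over the 1374 well-counted genes 0.396 and 0.345. The minimum mean behind the last values admits genes that were high in the 10 similar pools only, which lowers them by construction. The summed blastocyst markers were much lower, 0.0286 and 0.0210 of the median of the other 10 pools. That is a ratio of sums, in which KRT8 (mean 9772 counts) and KRT18 (2038) weigh most, and not a median over genes. Gene by gene, the markers in Embryo444_2 ran from 0.0077 (KRT18) and 0.015 (KRT8) to 0.31 (CDH1) and 0.70 (NANOG).

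The genes also differed in rank within a pool. TTN ranked 9th to 70th in the 10 similar pools, 12th in Embryo511_1 and first in Embryo444_2. With 2516 counts it took 0.214% of that library, against 0.0812% in Embryo424_1 to 0.162% in Embryo498_1 elsewhere. The 2516 counts were fewer than the 2523 of Embryo498_1, where TTN ranked 9th. The most counted gene had 5117 to 24131 counts in the other 11 pools. TTN was also highest in Embryo444_2 after TMM scaling, at 1.46 times the median of the 10 similar pools. All 8 giants had their best rank in Embryo444_2, where NEB ranked 4th, SYNE1 11th, MACF1 17th, SYNE2 20th, DST 25th, RYR2 42nd and RYR1 58th. The share of all genes that ranked best there was not counted, so this is not read as a trait of the giants. MACF1 ranked best with its lowest count (626), so a rank also follows the counts of other genes in Embryo444_2. In that pool the 10 most counted genes together took 0.875% of the counts, against 2.26% to 5.29% in the others. Those genes were TTN, ZNF280B, ZBTB25, NEB, LCOR, LOC105615578, LOC101105495, RPL8, ZNF22 and CYLD. RPL8, a ribosomal protein gene, was the one of them that ranked 2nd to 6th in each of the 10 similar pools, where it had 4772 to 14479 counts against 779 in Embryo444_2.

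**Figure D2:**
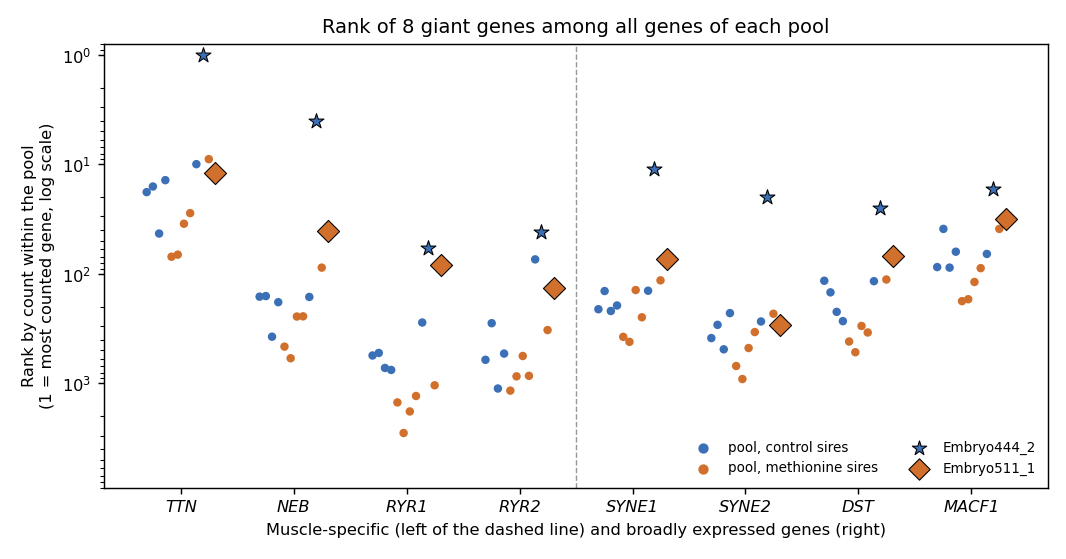
Rank of each giant gene by count within its pool (vertical axis, log scale, 1 at the top is the most counted gene), coloured by the diet of the sire. All 8 genes reach their best rank in Embryo444_2 (star), from 1 for TTN to 58 for RYR1. The share of all genes that do so was not counted.

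The muscle-specific giants summed to 2633 to 4339 counts and the broadly expressed giants to 2125 to 3077. Their ratio was 0.980 (Embryo423_1), 1.26 (median) and 1.73 (Embryo444_2) in control pools. In methionine pools it was 1.06 (Embryo424_1), 1.16 and 1.38 (Embryo498_1). The 2 highest ratios were both from Ram444, 1.59 in Embryo444_1 and 1.73 in Embryo444_2, and the groups overlapped. In Embryo444_2 the muscle-specific sum was 1.35 times the median of the other 10 pools and the broad sum 0.974 times, while in Embryo511_1 these were 0.945 and 0.872. TTN carried much of the ratio: without it the median over all pools was 0.454 instead of 1.25. The order changed too, since without TTN the highest ratios were 0.728 in Embryo511_1, 0.727 in Embryo444_2 and 0.698 in Embryo444_1. With TTN but without Embryo444_2 and Embryo511_1 the median was 1.24. RYR2 had its highest count (740) in Embryo444_1, and MACF1 its lowest (626) in Embryo444_2. The ratio has no length correction and is read only between pools.

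**Figure D3:**
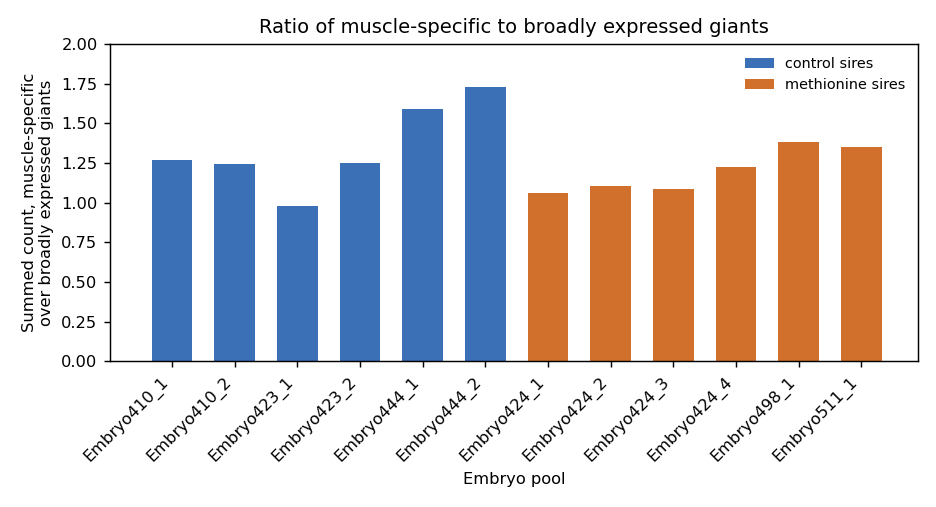
Summed counts of TTN, NEB, RYR1 and RYR2 over those of SYNE1, SYNE2, DST and MACF1 (vertical axis, ratio) in each pool, 1 bar a pool, with control sires on the left and methionine sires on the right. The bars lie between 0.980 and 1.73, and both pools of Ram444 are the highest.

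Other long genes were counted in lists of the same kinds. Of 30 other tissue-restricted long genes, 26 were in the table, and all 26 had counts in every pool. Among those with the highest means were RYR3 (a further ryanodine receptor) with 366 counts and DNAH5 (a ciliary dynein) with 321. The list summed to 4573 to 7082 counts, 1.39 times the median of the other 10 pools in Embryo444_2 and 0.926 times in Embryo511_1. In Embryo444_2, 24 of the 26 genes were above their own median of the other 10 pools, against 44.5% of all tested genes, and in Embryo511_1 11 were, against 27.3%. Of 32 other broadly expressed long genes, 30 were in the table, led by UBR4 (a ubiquitin ligase), AHNAK and MDN1 (a ribosome assembly factor) with means of 2548, 1427 and 608. UBR4 reached 21170 counts in Embryo444_1, against a median of 545.5 over the 12 pools. That list had 0.800 times the median of the other 10 pools in Embryo444_2 and 0.658 times in Embryo511_1. AHNAK alone had 88 and 76 counts there against 789 to 2255 in the 10 similar pools, and without it the ratios were 0.922 and 0.758. In Embryo444_2, 16 of the 30 genes were above their own median of the other 10 pools, and in Embryo511_1 8 were. The median CV of the genes was 25.6% in the restricted and 25.7% in the broad list, and 25 of 26 and 27 of 30 lay below the median of all tested genes. This used raw counts over 12 pools. It was not repeated at like counts, after TMM scaling or without Embryo444_2 and Embryo511_1.

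Shorter genes of muscle were also counted. Of 40 sarcomere and muscle markers, 28 were in the table and 26 had counts in every pool, with no gene at 0 throughout. Their sum was 882 to 1391 counts in the 10 similar pools. MYH1, MYH2 (myosin heavy chains) and MYBPC1 (a myosin-binding protein) had the highest means, 156, 124 and 102 counts. In Embryo444_2 the markers summed to 1045 counts, 1.04 times the median of the other 10 pools, whereas the muscle-specific giants stood at 1.35 times. Only 9 of the 28 markers were above their own median of the other 10 pools there, against 44.5% of all tested genes. In Embryo511_1 14 of the markers were, against 27.3%. In Embryo511_1 they summed to 1654 counts, 1.64 times that median, and 9 of the 28 markers were highest there, against 8.63% of all tested genes. Named after their values were seen, MYL3 had 254 counts in that pool against 7 to 27 in the 10 similar pools, TNNC1 had 135 against 15 to 33 and ACTA1 had 116 against 3 to 40. The list did not move as one, for 5 markers had their lowest count in Embryo511_1, namely MYH1 (91), TNNT2 (3), TPM2, CKM and DES (10 each), against 34.5% of all tested genes. RYR1, the skeletal calcium channel, was also highest in that pool (505 counts) while TTN was at its lowest (1403 counts). Whether these markers had a part in the RYR1 value was not tested.

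**Figure D4:**
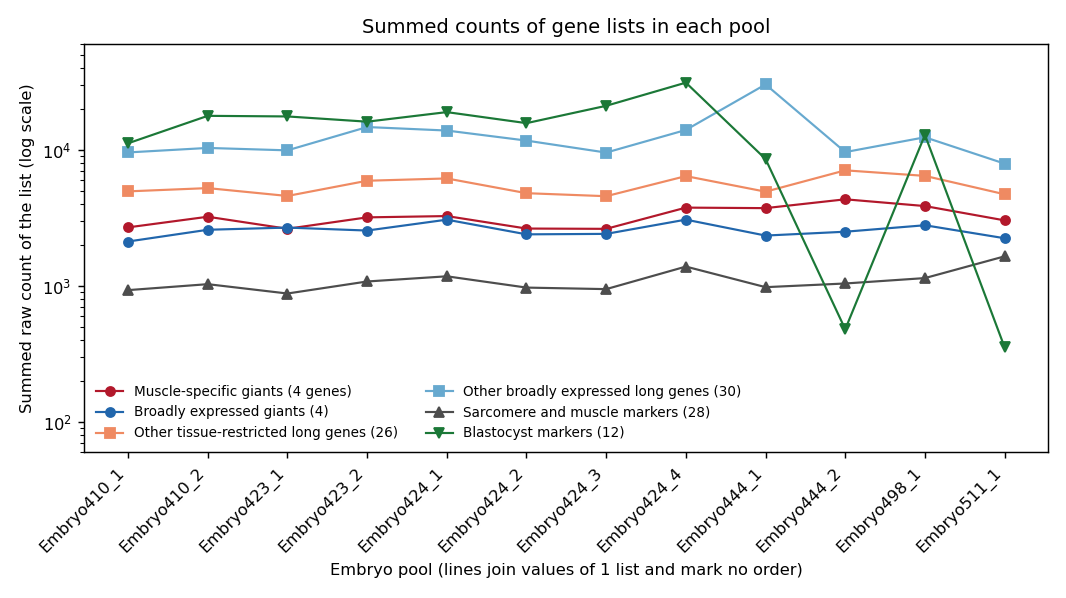
Summed raw counts (vertical axis, log scale) of 6 gene lists in each of the 12 pools, with the number of genes in the table in brackets. Both giant lists and the other tissue-restricted long genes run nearly level, the blastocyst markers drop to 482 and 355 in Embryo444_2 and Embryo511_1, and UBR4 lifts the other broad list in Embryo444_1.

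The design asks whether expression in the embryos differed with the diet of the sire. None of the 8 giants was called by the quasi-likelihood test of edgeR at a false discovery rate (FDR, Benjamini-Hochberg) under 0.05, and no gene was among all 16488 tested (0%). At an unadjusted p under 0.05 there were 0 of the 8 giants and 7.92% of all genes. The same holds for the giants with DESeq2, which called 0.0989% of all genes, and with the likelihood-ratio test, which called 0.0303%. The 6 and 6 values did not overlap in 0.352% of all genes and in none of the 8. Pools of a ram share a sire, so these p-values measure the spread between pools.

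TTN had 1204, 1381 and 1781 TMM-normalized CPM (counts scaled to the same effective library total in every pool; lowest, median and highest) in control pools and 930, 1177 and 1519 in methionine pools. Its means were 1411 ± 213 and 1188 ± 239 CPM (SD, n = 6 pools each), and the log2 fold change, methionine minus control, was -0.25 (SE 0.45, FDR 0.903 by edgeR). An exact two-sided permutation test over the 924 assignments of pools gave p = 0.113, and one over the 20 assignments of ram means gave p = 0.70, where 0.1 is the smallest possible. With DESeq2 the log2 fold change of TTN was -0.23 with a smaller SE of 0.19 (FDR 0.760). The difference passed none of these tests. NEB had 406 ± 114 CPM in control and 408 ± 163 in methionine pools, a log2 fold change of 0.01 (SE 0.34). RYR2 had 283 ± 136 and 235 ± 86.2, a change of -0.27 (SE 0.35). Neither difference passed the test.

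RYR1 had 170, 203 and 318 CPM in control pools and 95.7, 134 and 501 in methionine pools. Its means were 229 ± 56.3 and 188 ± 154, with a log2 fold change of -0.29 (SE 0.39, FDR 0.864 by edgeR). A single methionine pool, Embryo511_1, lay above all control pools, and the other 5 methionine pools lay below all of them. Without Embryo444_2 and Embryo511_1 the log2 fold change was -0.76 (SE 0.20, FDR 0.242 by edgeR), and the groups did not overlap, 95.7 to 148 against 170 to 279 CPM. RYR1 was then among the 11.9% of all genes with an unadjusted p under 0.05 and the 1.76% whose groups did not overlap, and 4 of the 5 methionine pools left were sired by Ram424. With all pools of a ram summed, the RYR1 change was 0.19 (SE 0.61), in the opposite direction. RYR1 was not called in any of these fits.

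For the broadly expressed giants no difference was called either. SYNE1 had 405 ± 65.4 CPM in control and 412 ± 99.1 in methionine pools (log2 fold change 0.02, SE 0.31). SYNE2 had 299 ± 60.9 and 255 ± 33.0 (-0.23, SE 0.27), DST 399 ± 58.3 and 359 ± 103 (-0.15, SE 0.31) and MACF1 637 ± 142 and 634 ± 111 (-0.01, SE 0.35). In each case the groups overlapped and the test was not passed, with FDR values of 0.839 (SYNE2) to 0.999 (MACF1) by edgeR. The median log2 fold change was -0.26 over the 4 muscle-specific and -0.08 over the 4 broad giants, against 0.01 over all genes. Without Embryo444_2 and Embryo511_1 the changes were -0.23 (SE 0.23) for TTN, -0.43 (SE 0.29) for RYR2, -0.33 (SE 0.21) for DST and -0.20 (SE 0.21) for MACF1, and none of these was called. The scaling bears on these signs: with library totals alone all 8 giants were lower in methionine pools and the median of all genes moved to -0.09, and with raw counts 4 were lower and the median was 0.22.

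**Figure D5:**
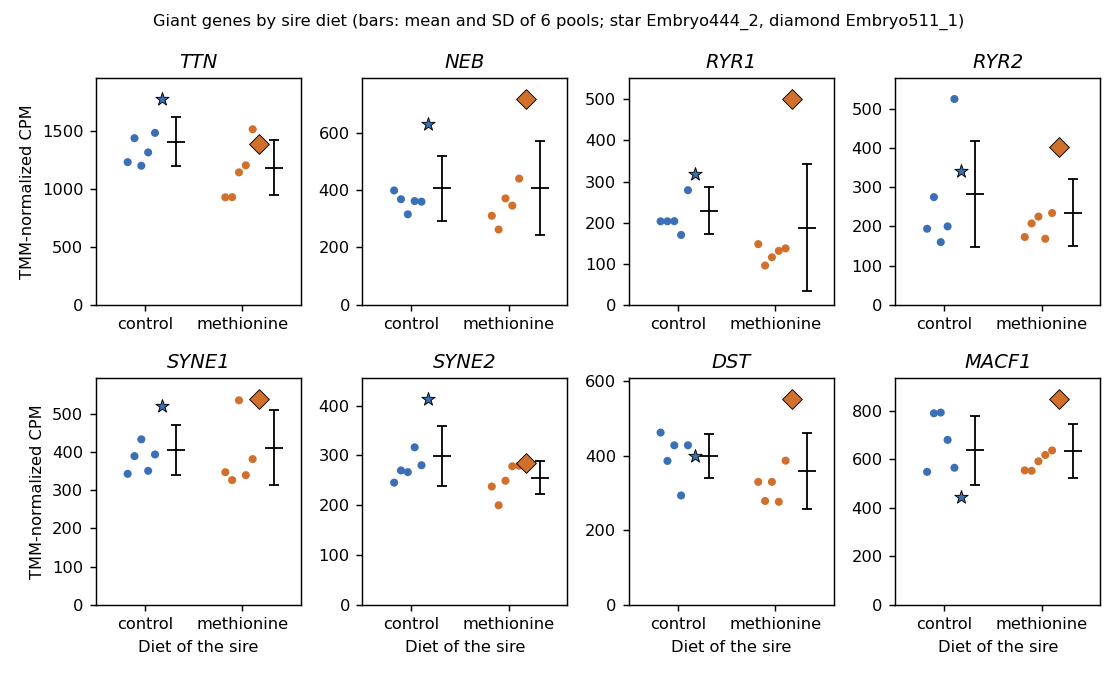
TMM-normalized CPM (vertical axis, from 0) of each giant gene in the 6 control and 6 methionine pools, with mean and SD as bars, Embryo444_2 as a star and Embryo511_1 as a diamond. The groups overlap for all 8 genes, and for RYR1 the diamond (501 CPM) is the one methionine pool above the control pools.

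None of the other lists held a called gene. At an unadjusted p under 0.05 by edgeR there were 0 of 26 tested restricted long genes, 1 of 30 broad long genes (lower), 2 of 22 sarcomere markers (1 lower, 1 higher) and 0 of 11 blastocyst markers, against 7.92% of all genes. The broad long gene was UBR4 (log2 fold change -3.50), which had 21170 counts in 1 control pool, Embryo444_1, against a median of 545.5 over all pools. The median log2 fold change of the restricted long genes was -0.12, and 24 of the 26 were lower in methionine pools, against 49.5% of all genes. Of the 26, 8 had their highest raw count in the control pool Embryo444_2, against 13.9% of all tested genes. The diet comparison of the lists was not summarized without Embryo444_2 and Embryo511_1.

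Among the genes whose TMM log2 CPM followed TTN most closely over the 12 pools, by Spearman's coefficient, were LIMCH1 (0.958), NEGR1 (0.958), COL6A6 (0.930) and KLHL3 (0.916). By Pearson's coefficient they were LOC100526784 (0.914), CC2D2B (0.909), KLHL3 (0.906), OTUD7A (0.904) and ARHGAP45 (0.902), so KLHL3 was in both. For NEB they were NRSN1 (0.958), EPHA10, GABRA2 and CATSPER3 (0.944 each) and DNAH5 (0.937). MACF1 was followed by C1H1orf194 (0.916), TIE1 (0.909), LOC101107296 (0.902), LOC114110113 (0.895) and PKN3 (0.881). These points share library, depth and scaling factor, and the coefficients are the highest of 16488 genes. Among the giants themselves, Spearman's coefficient had a median of 0.587 over the 6 muscle pairs, 0.322 over the 6 broad pairs and 0.531 over the 16 mixed pairs. In the 10 similar pools these medians were 0.455, 0.370 and 0.345.

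Whether a gene inside a giant was counted with it could not be settled here. In the annotation ARS-UI_Ramb_v3.0, which is not the build of the counts, all 8 were found by symbol, and no gene overlapping them was in the count table. Genes were matched by symbol, so an overlapping gene with another name in the build of the counts would be missed. Next to TTN, CCDC141 had 76 to 148 counts and PLEKHA3 had 30 to 88 over the 12 pools. RIF1, next to NEB, had 116 to 357, and NDUFS5, next to MACF1, had 12 to 127.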

How the data were processed

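RNA from 12 pools of blastocysts was sequenced after whole-transcriptome amplification. The authors trimmed the reads with Trimmomatic, aligned them with STAR to Oar_rambouillet_v1.0 and deposited the raw counts of each gene. How strand was handled in counting is not given in the sources used here, so reads of overlapping antisense genes cannot be told apart. Counts without molecular identifiers are not independent molecules. Groups came from the sample labels, and all 12 columns were mapped. The members and the gene lists were chosen with earlier results of these data known.

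A gene was tested if more than 3 pools gave it 15 counts or more (16488 of 20092 genes), with TMM scaling and the quasi-likelihood test of edgeR 4.0.16 (R 4.3.3), an FDR under 0.05 and 2 groups of 6 pools. DESeq2 1.42.0 and limma 3.58.1 were alternatives, and the fit was tested on simulated data. TMM factors were 0.881 to 1.08, and 1.23 in Embryo444_2. Pools of a ram were compared over genes. Embryo424_1 and Embryo424_2 differed least, with a chi-square of 3.28 per gene against 8.31 to 26.4 for other pairs, where 1 would be counting error alone. Amplified libraries of 1 RNA would exceed that too, so the labels were followed and both were kept, with their sum as an alternative.

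Named genes were the 8 giants, the 5 genes most like TTN, NEB and MACF1, the 3 of each list with the highest mean count and the 10 most counted genes of Embryo444_2, and some genes that this rule names are not reported here. The ratio of muscle-specific to broad giants was planned per kb of exon, but no exon lengths of the build were used here, so summed counts were taken. For the same reason the sperm methylation counts were not used here and no sequences are shown.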

Additional observations from a re-analysis of the deposited data

Results flagged for a closer look

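In groups of 6 pools, the gap from the highest or lowest pool to its neighbour was compared with the whole range, and a share above Dixon's 95% critical value was taken as standing apart. Of 16 groups (8 giants by 2 diets), 4 did so. Chance flags about 1 in 20 independent groups, but these 16 share the same pools and are not independent. The rule was applied to the giants only, so whether they were flagged more often than other genes was not tested. NEB in Embryo444_2 (631 TMM-normalized CPM) lay above the other control pools, which reached 399. RYR1 in Embryo511_1 (501 CPM) lay above the other methionine pools, which reached 148, with a gap of 0.872 of the range. RYR2 (403 CPM against at most 234) and MACF1 (850 CPM against at most 637) were also high in Embryo511_1. All 4 values came from the pools with few blastocyst marker counts. Embryo511_1 had the lowest total, 1017847 counts, and in raw counts MACF1 there (857) lay inside the range of the 10 similar pools (729 to 1258), as did RYR2 (406 against 224 to 740). The part of the total and of the markers in these values was not tested.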

How the results depend on the processing

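None of the 8 giants was called under any of the 28 alternatives, which comprise planned ones and 3 chosen after seeing the data (without Embryo444_2 and Embryo511_1, library totals alone, and raw counts). Over all genes 0 were called, against 16 with DESeq2, 5 with the likelihood-ratio test and 1 without Embryo444_2 and Embryo511_1, while 1306 had an unadjusted p under 0.05. The ratio of muscle-specific to broad giants moved from 1.25 to 0.454 without TTN. Of the log2 fold changes of single giants under the alternatives, 47 of 224 changed sign and none of SYNE2's did. Ram498 and Ram511 sired 1 pool each, so leaving out the ram repeats the fit without its pool. These repeats are counted in the 28 and the 224. MACF1, near 0, turned to 0.011 with RLE scaling, 0.0016 without the filter, 0.00997 with DESeq2, 0.15 with pools summed per ram, 0.10 with the ram as a random effect, 0.030 with Embryo424_1 and Embryo424_2 summed and 0.18 in raw counts. With pools summed per ram RYR1 was 0.19, RYR2 0.00054 and DST 0.096, and in raw counts DST was 0.013. NEB was -0.066 without Embryo444_2 and Embryo511_1 and -0.105 with library totals alone, where SYNE1 was -0.085. Leaving out 1 pool or 1 ram gave -0.33 to 0.046 for TTN, -0.23 to 0.51 for NEB, -0.87 to 0.48 for RYR1, -0.51 to 0.18 for RYR2, -0.070 to 0.19 for SYNE1, -0.32 to 0.24 for DST and -0.15 to 0.23 for MACF1. Without Ram424 the signs of TTN (0.046), RYR1 (0.48), RYR2 (0.18), DST (0.24) and MACF1 (0.23) turned. RYR2 also turned without Embryo444_1 (0.0057) or Ram444 (0.18). The signs of NEB, SYNE1 and MACF1, near 0 in the main values, turned without single pools of several rams of either diet. The cause was not tested. Without Embryo511_1, the one pool of Ram511, RYR1 was -0.87 (FDR 0.340 by edgeR). The methylation comparison and the ratio per kb were not run. No paired analysis was possible because rams are nested in diet and pool numbers mark pools within a ram.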

Other observations

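Markers of other tissues were counted as well. Of 30 genes listed, 18 were in the table and 17 had counts in every pool, with sums of 911 to 1676 counts over the 12 pools. PECAM1, VWF (endothelium) and TG (thyroglobulin, of the thyroid) had the highest means, 240, 200 and 148 counts. The sum was 1456 counts in Embryo444_2 and 1179 in Embryo511_1, or 1.12 and 0.909 times the median of the other 10 pools. The summed blastocyst markers, in which KRT8 weighs most, stood at 0.0286 and 0.0210 times. The list of other tissues did not move as one. PECAM1 had 81 counts in Embryo444_2 and 42 in Embryo511_1 against 152 to 485 elsewhere. PTPRC, named after its values were seen, had 171 and 256 against 62 to 127. In Embryo444_2, 12 of the 18 genes were above their own median of the other 10 pools, against 44.5% of all tested genes. In Embryo511_1 7 were, against 27.3%. By sire diet 2 of 17 tested genes were lower in methionine pools at an unadjusted p under 0.05 by edgeR, and 0 were called. VWF is also among the tissue-restricted long genes.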
